A study of Mus musculus with 6 samples.

Results

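Mcts1, Mcts2, Denr and Eif2d encode a small group of proteins that work on the small ribosomal subunit after a reading frame has been translated. They were followed here in RNA from mouse brain synaptosomes, the pinched-off nerve terminals isolated from homogenised brain. Members were taken as the non-control probes whose gene name on the array was 1 of these 4 symbols or the older name Lgtn, which gave 6 probes of 4 genes among 55681 different probes. The group was chosen by the KI minus WT difference of Mcts1 on these same arrays, with its partners added for their function, so the knock-in (KI) and wild-type (WT) values of all 4 genes are given as a description, with no p-value.

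There were 3 KI and 3 WT synaptosome samples, each on its own one-colour Agilent array. The series title concerns regulation of the FMR1 transcript by microRNAs and fragile X-associated tremor/ataxia syndrome; the names and the design text call the mutant samples knock-in, while their genotype entry says knock-out, and they are called knock-in here. The inserted allele, strain, age and sex of the mice are not given in the sources used here, and no label says if each sample is another animal. Errors and p-values therefore cover only how far these samples varied, part of which may be technical. The 3 KI arrays and WT replicate 3 shared slide 1, and WT replicates 1 and 2 shared slide 2. The amount of RNA for KI replicate 1 is listed as 0.0 µg, against 0.2 µg for the other 5.

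The share of spots called well above background ran from 52.9% to 55.7% per array, controls aside, and 20975 genes were kept. WT replicate 2 stood apart most often: it was the lowest of the 6 arrays by at least 0.5 log2 units for 816 genes and the highest by as much for 688, where the other 5 arrays did so for 61 to 160 and for 89 to 271 genes. All 8 synaptic markers, among them Snap25 and Syn1, were well above background on every array. Markers of other cell types were read as well. All 7 measured striatal markers were higher in KI, with a median difference of 0.89 and overlapping groups: their mean was 2.84, 1.41 and -0.14 in KI replicates 1 to 3 and 2.24, -0.54 and -0.53 in WT replicates 1 to 3 (log2 relative to the 75th percentile). All 5 oligodendrocyte markers were higher in KI (median 0.33), with a mean of 3.97 to 4.40 in KI and 3.44 to 4.16 in WT, lowest in WT replicate 2. Of 5 astrocyte markers 2 were higher and 3 lower, with a mean of 4.32 to 4.48 in KI and 4.28 to 4.45 in WT. Gfap differed by 0.75 and Slc1a3 by 0.14, both with all KI arrays above WT. Aldoc differed by -0.22 with all KI arrays below WT. Of 6 microglial markers 4 were higher and 2 lower, with a mean of 3.18 to 3.30 in KI and 3.04 to 3.199 in WT. C1qa differed by 0.32, Tmem119 by 0.20 and Cx3cr1 by -0.26, all without overlap. Of 5 endothelial and mural markers 3 were higher and 2 lower, with a mean of -1.28 to -0.92 in KI and -1.08 to -0.97 in WT, and Cldn5 differed by -0.99 with all KI arrays below WT. Of 5 choroid plexus markers 4 were higher and 1 lower, with a mean of -4.27 to -2.71 in KI and -4.79 to -2.20 in WT. None of these markers passed limma's adjusted p, and those named singly were picked after their values were seen. The part of these cell types in the results was not tested. Over all genes, all KI arrays were below all WT arrays for 12.5% and above them for 7.87%. Fmr1, the gene the series concerns, read 2.08, 2.24 and 2.27 in KI, against 1.42, 1.33 and 1.37 in WT. In a fit across all genes with limma, 2 of 20975 genes (0.00954%) passed an adjusted p of 0.05, both higher in KI, and 2276 (10.9%) had an unadjusted p under 0.05, 6.4% of genes lower and 4.45% higher in KI. Irrespective of any test, 59.1% of genes were lower and 40.9% higher in KI. Scaling by the median of detected probes gave 4 higher and 1 lower past limma's adjusted p. Slide 2 held only WT arrays, so genotype and slide were partly mixed in all these counts. The part of each was not tested.

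When a ribosome ends translation of a short upstream reading frame, its small subunit can either leave the mRNA or be reset to start again at the next start codon. The MCTS1 and DENR proteins act as a pair in that step: MCTS1 carries an RNA-binding PUA domain, DENR a domain of the kind found in the start-site factor eIF1, and together they help to clear the spent tRNA from the small subunit and to allow re-initiation. EIF2D carries both kinds of domain in a single chain and can perform related reactions in vitro. Mcts2 is a retrocopy of Mcts1 that sits in an intron of H13 and is imprinted in the mouse, with expression from the paternal copy. Mcts1 itself lies on the X chromosome.

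The probes decide what each value can say, so 30 bases of every 60-base probe are shown, as the array files give them, in the direction of the transcript. In the Mcts1 probe the capitals mark AATAAA, the hexamer of the common polyadenylation signal; in the Eif2d probes they mark the bases that both probes share.
Mcts1, probe bases 1 to 30: gcctctatgattatgctgAATAAAaattcc
Mcts2, probe bases 1 to 30: tatccattatctaaatgacgggctgtggca
Denr, upstream probe, bases 1 to 30: cacagaaggtcacgatagccaaaattccca
Denr, downstream probe, bases 1 to 30: aacatgtgaaagtcttttatcttttaaatg
Eif2d, upstream probe, bases 31 to 60: cacccttgcactgaAGACCTATAATAAAAA
Eif2d, downstream probe, bases 1 to 30: AGACCTATAATAAAAAggtgactgtggtcc

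The single Mcts1 probe lies on the plus strand at chrX:35966562-35966621 (build mm9), from base 738 of its transcript. The single Mcts2 probe lies at chr2:152513504-152513563, also on the plus strand, from base 620 of its transcript. The longest run of bases that these 2 probes have in common is 5. No other probe on the array shares 20 bases with either. Neither probe was compared with the transcript of the other paralog, so whether it also binds that RNA was not tested. The upstream Denr probe lies at chr5:124374779-124374838 and starts at base 435 of the transcript, and the downstream one lies at chr5:124378408-124378467 and starts at base 1802. The Eif2d probes overlap by 16 bases; the upstream one is at chr1:133064757-133064816 and the downstream one, at chr1:133064801-133067556, covers 2756 genomic bases with 60, so it crosses an exon junction. Whether a probe falls in a coding or an untranslated part is not annotated in the files used here. AATAAA stands in the Mcts1 probe from base 19 and in both Eif2d probes, and 10.1% of the 55681 probes hold it on this strand (13.5% on either strand). It is a match of letters, not a mapped site.

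Mcts1 gave a signal of 3599.7, 3366 and 3728 (processed intensity) in KI replicates 1 to 3, against 4200.4, 4856 and 6469 in WT replicates 1 to 3. The KI signals were all below the WT signals. The 75th percentile of the whole array was instead higher in KI, at 883, 909 and 910.0, than in WT, at 578, 580.2 and 823. The low 578 and 580.2 came from slide 2, and the 823 from slide 1, which held the KI arrays. Relative to that percentile, Mcts1 read 2.03, 1.89 and 2.03 in KI and 2.86, 3.07 and 2.98 in WT on the log2 scale. The 2 groups lay far apart with little spread within each: the means were 1.98 ± 0.08 in KI and 2.97 ± 0.10 in WT (SD, n = 3 each). The log2 difference was -0.98 (SE 0.11), so KI read 0.506 of WT. All 9 pairings of a KI with a WT array were lower in KI, by -0.83 to -1.18. On slide 1, where the KI arrays can be set against WT replicate 3, the differences were -0.94 to -1.09 and averaged -0.99 (SE 0.12), and without WT replicate 2 the difference was -0.93. On slide 1 WT is a single array, so the spread behind that SE and the slide 1 SEs of Mcts2 and Denr comes from the KI arrays alone, and WT replicate 3 is assumed to vary like them. In bulk synaptosome RNA, a changed mix of nerve terminals and other material cannot be told apart from a changed RNA amount within them. This holds for each of these transcripts.

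The error that Feature Extraction assigned to each Mcts1 spot was 10.0% of its signal, and the raw spot was at least 106 times as bright as its local background on every array.

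**Figure D1:**
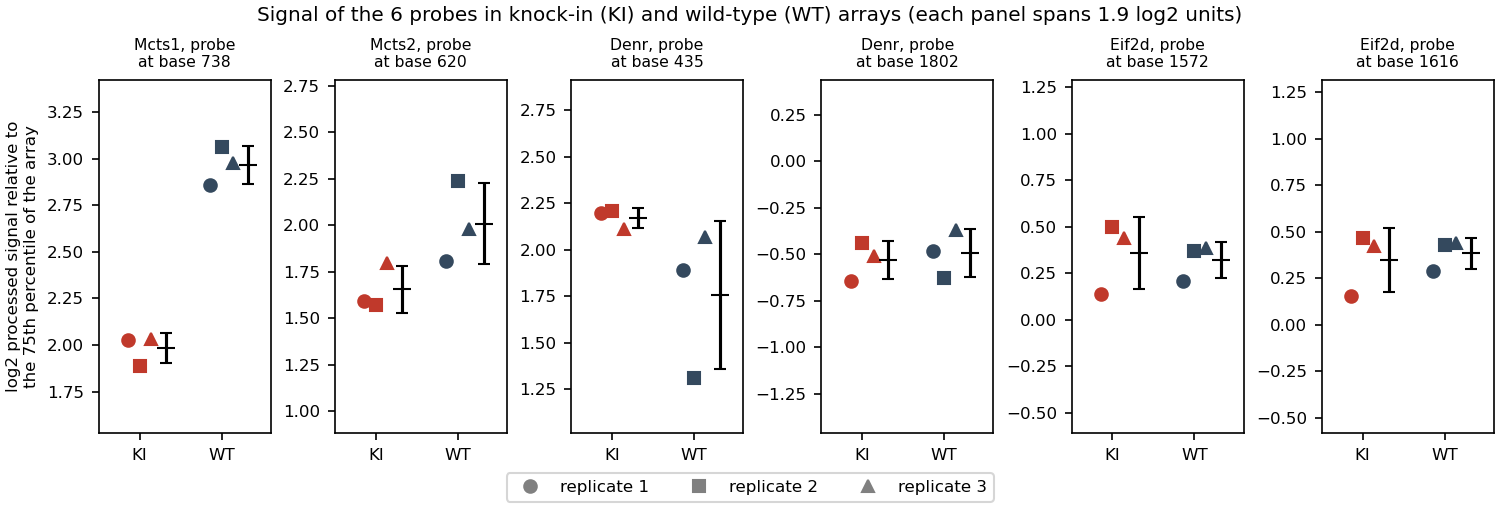
Log2 processed signal relative to the 75th percentile of each array for the 6 probes, with KI arrays (red) left of WT arrays (dark) in each panel; marker shapes are replicate numbers, and bars give the mean ± SD of 3 arrays. The Mcts1 groups are wide apart (1.89 to 2.03 in KI, 2.86 to 3.07 in WT), while the Eif2d groups overlap by both probes.

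Mcts2, the retrocopy, gave 2665, 2705 and 3164 in KI and 2029, 2739 and 3241 in WT as processed intensity. Relative to the 75th percentile it read 1.59, 1.57 and 1.80 in KI and 1.81, 2.24 and 1.98 in WT. The KI arrays were lower here too, but KI replicate 3 and WT replicate 1 nearly met, at a distance of -0.013. The means were 1.65 ± 0.12 in KI and 2.01 ± 0.22 in WT (SD, n = 3 each), a log2 difference of -0.35 (SE 0.15), or 0.782 of WT. WT replicate 2 was the highest array, and without it the difference was -0.24. Against WT replicate 3 on the same slide, the KI arrays averaged -0.32 (SE 0.14).

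Denr, which encodes the partner of MCTS1, differed between its probes. The brighter upstream probe read 2.20, 2.21 and 2.11 in KI, against 1.89, 1.31 and 2.07 in WT. The KI arrays were close together and above all WT arrays, by only 0.041 in the closest pairing, and WT replicate 2 lay far below the other 5. The means were 2.17 ± 0.05 in KI and 1.76 ± 0.40 in WT (SD, n = 3 each), a log2 difference of 0.42 (SE 0.20), or 1.33-fold. Leaving out WT replicate 2 reduced it to 0.19, and the arrays of slide 1 alone gave 0.10 (SE 0.11), so the size of this difference rested on 1 array.

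The downstream Denr probe read -0.64, -0.44 and -0.51 in KI and -0.48, -0.63 and -0.37 in WT. The groups overlapped, with a log2 difference of -0.04 (SE 0.12, 95% interval -0.32 to 0.25). Taken within each array, the upstream minus the downstream probe was 2.84, 2.65 and 2.62 in KI and 2.37, 1.94 and 2.44 in WT. The KI minus WT difference thus depended on the probe. Both probes ranked the WT arrays alike, with WT replicate 2 lowest and WT replicate 3 highest.

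The downstream Eif2d probe was printed in 10 spots on each array, the other 5 probes in 1. That probe read 0.15, 0.47 and 0.42 in KI and 0.29, 0.43 and 0.44 in WT. KI replicate 1 was the lowest array and the rest overlapped, which gave 0.35 ± 0.17 in KI and 0.39 ± 0.08 in WT (SD, n = 3 each). The log2 difference was -0.04 (SE 0.13), with a 95% interval of -0.34 to 0.27. The upstream probe read 0.14, 0.50 and 0.44 in KI and 0.21, 0.37 and 0.39 in WT, a difference of 0.04 (SE 0.13, 95% interval -0.29 to 0.36). Both probes ranked KI replicate 1 lowest, KI replicate 2 highest and WT replicate 1 second lowest.

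The 10 spots also show how well a single spot repeats. Their log2 SD within an array was 0.11, 0.06 and 0.07 in KI replicates 1 to 3 and 0.06, 0.07 and 0.05 in WT replicates 1 to 3, with 1 of 60 readings left out as an outlier. That SD is for 1 probe and does not cover labelling or tissue preparation.

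**Figure D2:**
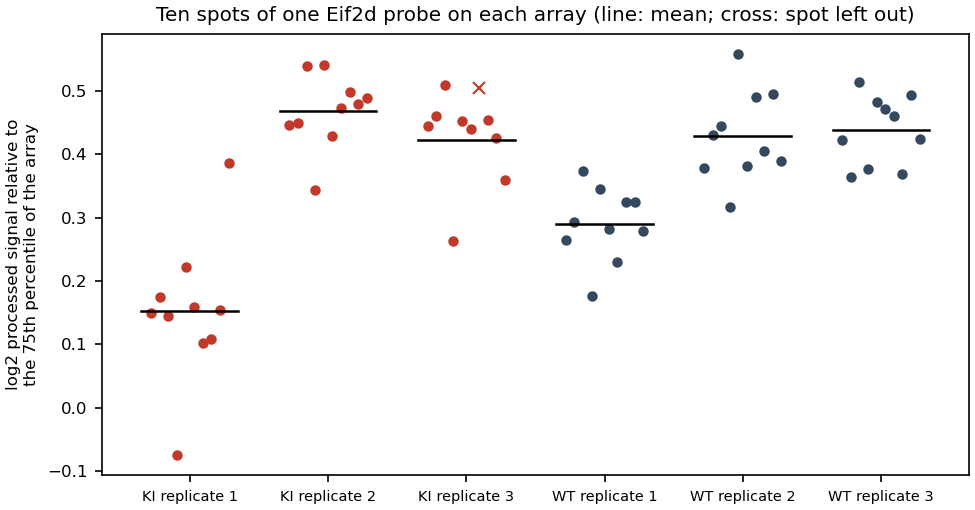
Log2 processed signal relative to the 75th percentile of the array for the 10 spots of the downstream Eif2d probe on each array, KI arrays in red and WT arrays in dark, with the mean as a line and the spot left out as a cross. KI replicate 1 has the lowest mean (0.15) and the other 5 arrays lie between 0.29 and 0.47.

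Of the 4 genes, each by its brightest probe, 2 had all KI arrays below all WT arrays, where 12.5% of all genes did, and 1, Denr, had them all above, where 7.87% did. The members were assembled with this contrast known, and nothing is read from that count. Across the 17 other ways of processing the arrays, the Mcts1 difference lay between -1.04 and -0.92 and that of Mcts2 between -0.45 and -0.24. Denr lay between 0.10 and 0.57, and Eif2d between -0.10 and 0.06.

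**Figure D3:**
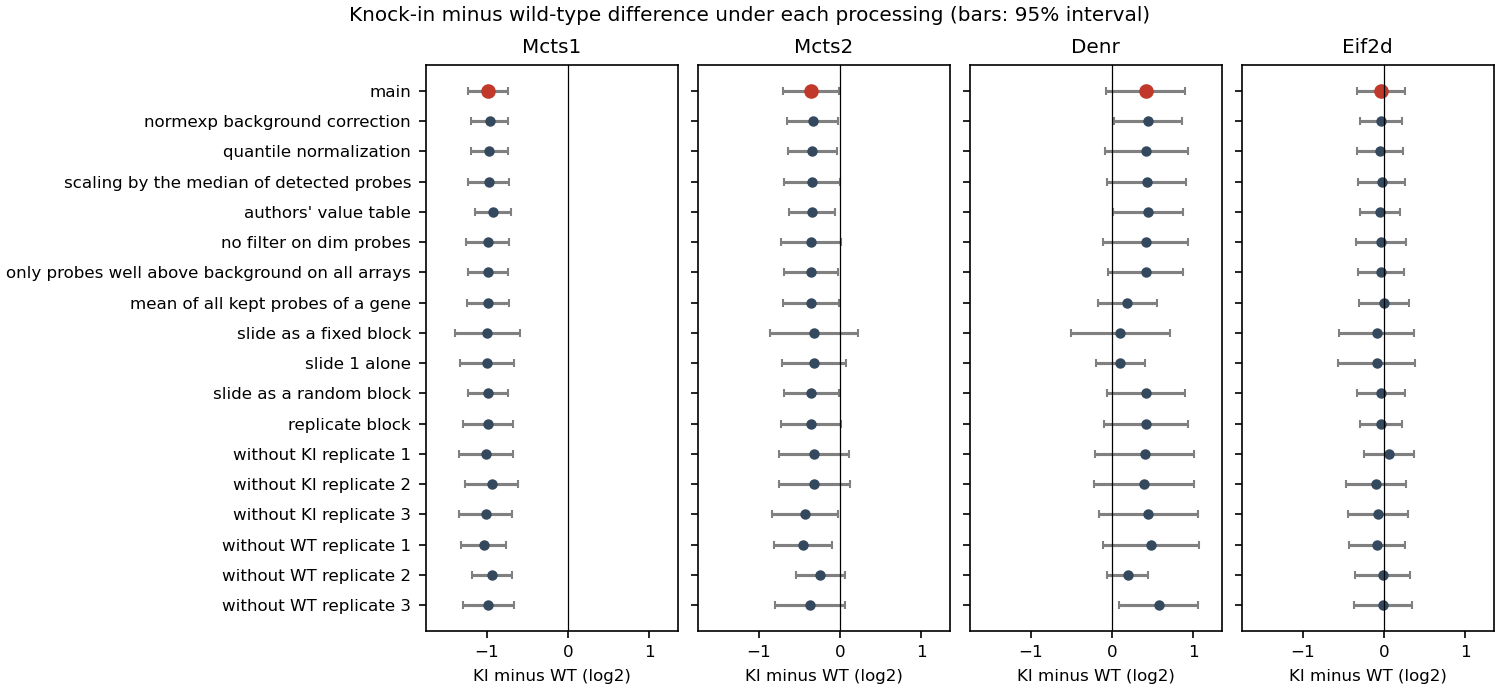
KI minus WT difference (log2) of the 4 genes as reported (red, top row) and under 17 other settings (dark), with 95% intervals. Mcts1 stays between -1.04 and -0.92, while Denr falls to 0.10 when the KI arrays are compared with WT replicate 3 alone.

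Genes near each member on the chromosome were read next. Within 500 kb of the Mcts1 probe, 5 genes were measured and 0 passed limma's adjusted p of 0.05. Limma's unadjusted p was under 0.05 for 0 of them, against 10.9% of all genes. C1galt1c1, which encodes a chaperone of protein glycosylation and whose probe was 17.8 kb away, read 2.22, 2.12 and 2.19 in KI and 2.22, 1.61 and 2.19 in WT. Cul4b, a ubiquitin ligase scaffold 81.5 kb away, read 1.43, 1.32 and 1.34 in KI and 1.26, 1.00 and 1.27 in WT, a difference of 0.19 (SE 0.11, limma's adjusted p = 0.529), though its other probe differed by -0.16. Zbtb33, a zinc finger factor that binds methylated DNA, differed by 0.21 (SE 0.10) and Tmem255a by -0.23 (SE 0.33). None of the neighbours was as low in KI as Mcts1: 4 of the 5 differed upwards, with a median of 0.17, whereas without WT replicate 2 only 2 did and the median was -0.03. Without that array C1galt1c1 differed by -0.03, Cul4b by 0.10 and Tmem255a by -0.37.

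On the X chromosome, 98 other measured genes lay between the Mcts1 and Fmr1 probes. Of these, 58 were lower and 40 higher in KI, with a median difference of -0.05, equal to that of all genes. None passed limma's adjusted p of 0.05. At limma's unadjusted p under 0.05, 9 were lower and 3 higher, where 6.4% and 4.45% of all genes were. All KI arrays were below all WT arrays for 14 of the genes, where this held for 12.5% of all genes. Rab33a, a small GTPase, differed by -0.39 (SE 0.12, limma's adjusted p = 0.416) and Hprt, the purine salvage enzyme, by -0.29 (SE 0.10, limma's adjusted p = 0.433), while Ccdc160 differed by -0.38 and Ldoc1 by -0.26. Among them the placeholder ENSMUST00000138201, named after its value was seen, differed by -2.28 (SE 0.18, limma's adjusted p = 0.0518); its spots cleared background on 2 KI and 3 WT arrays, and it passed under 5 of the 17 other settings.

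Because Mcts1 is X-linked, genes that mark the sex of the donors were read. Xist, which is transcribed from the inactive X chromosome, was well above background on 0 of 3 KI and 0 of 3 WT arrays by each of its 2 probes. The Y-linked RNA helicase gene Ddx3y read 1.16, 1.24 and 1.08 in KI and 1.06, 1.00 and 1.17 in WT. The Y-linked Eif2s3y read 0.08, 0.33 and 0.33 in KI and 0.48, 0.49 and 0.56 in WT. Both Y-linked genes were well above background on all 6 arrays, so the arrays did not split by sex. Of their X-linked partners, Ddx3x differed by -0.39 (SE 0.12, limma's adjusted p = 0.414) on its brightest of 3 probes, which spanned -0.42 to 0.15, and Eif2s3x by 0.29 (SE 0.14, limma's adjusted p = 0.496), with its other probe at -0.07. The X-linked demethylase genes Kdm5c and Kdm6a differed by 0.09 (SE 0.12; 0.19 without WT replicate 2) and -0.04 (SE 0.13). Kdm5d and Uty were below background on most arrays.

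H13, the signal peptide peptidase gene that hosts Mcts2, was added after its values were seen. It read 2.87, 2.88 and 2.80 in KI and 2.57, 3.05 and 2.84 in WT, a difference of 0.03 (SE 0.14) that was 0.15 without WT replicate 2, and 3 of its 4 probes were higher and 1 lower. Of 26 genes within 500 kb of the Mcts2 probe, 19 were lower and 7 higher in KI, with a median of -0.06. Of these, 0 passed limma's adjusted p. At limma's unadjusted p under 0.05, 2 were lower and 0 higher, where 6.4% and 4.45% of all genes were. Csnk2a1, a subunit of casein kinase 2, was lower by all 4 of its probes, at -0.29 (SE 0.16, limma's adjusted p = 0.512) on the brightest, which was -0.13 without WT replicate 2. Id1, an inhibitor of helix-loop-helix factors, differed by 0.26, and by 0.40 without that array. Xkr7 differed by -0.71 (SE 0.26) and Foxs1, a forkhead factor, by -0.41 (SE 0.16). Both were dim, with overlapping groups. Without WT replicate 2 these differences were -0.57 and -0.28.

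Around Denr, 22 genes were measured, 11 lower and 11 higher in KI, and 0 passed limma's adjusted p. At limma's unadjusted p under 0.05, 3 were lower and 3 higher, where 6.4% and 4.45% of all genes were. Of the 22, 36.4% had no overlap between groups, against 20.3% of all genes. Mlxip, a glucose-sensing transcription factor, read -1.04, -0.56 and -0.86 in KI and -1.92, -1.82 and -1.18 in WT. The difference was 0.82 (SE 0.23, limma's adjusted p = 0.413). WT replicate 3, on the slide of the KI arrays, lay closest to them. Diablo, which encodes a mitochondrial antagonist of caspase inhibitors, differed by 0.32 (SE 0.11) and was higher by both probes. The antisense transcript Pitpnm2os1 differed by -0.36 and the splicing-related Rsrc2 by 0.25. Around Eif2d, 10 genes were measured, 5 lower and 5 higher, with 0 past limma's adjusted p. At limma's unadjusted p under 0.05, 0 were lower and 1 higher, where 6.4% and 4.45% of all genes were. The 10 genes included Yod1, a deubiquitinase, at 0.49 (SE 0.16, and 0.32 without WT replicate 2). Pfkfb2, a regulator of glycolysis, was at 0.28, and Dyrk3, a kinase, at 0.29. Srgap2, which acts in spine development, differed by -0.19.

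**Figure D4:**
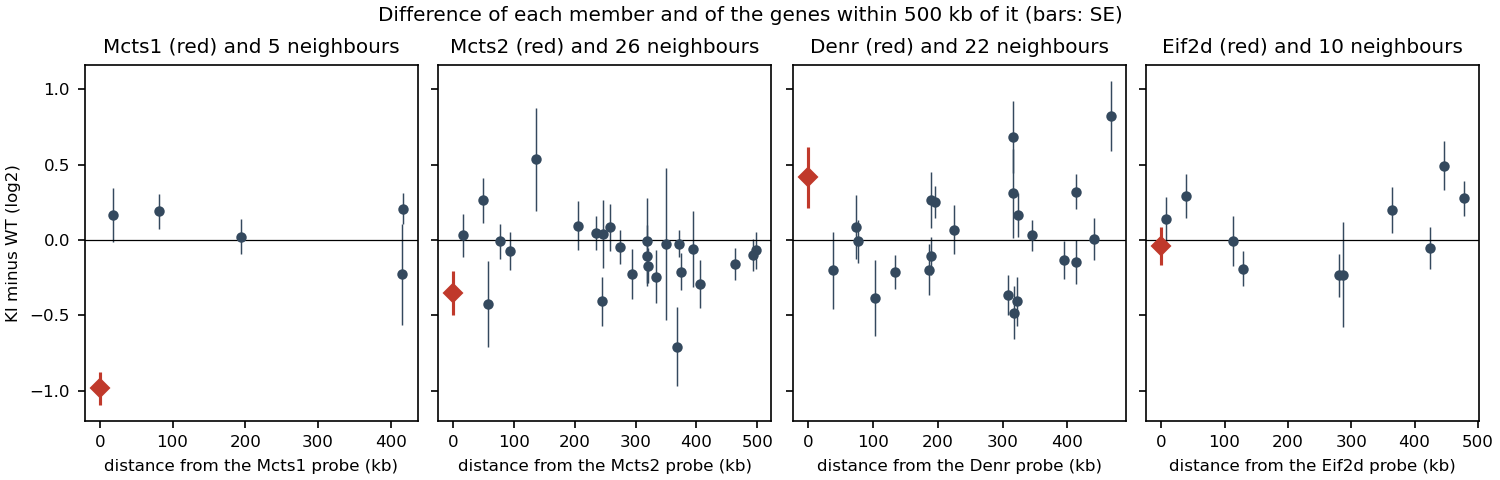
KI minus WT difference (log2, with SE) of each member (red diamond) and of the genes within 500 kb of it (dark points) against the distance from the member's probe in kb. The 5 neighbours of Mcts1 lie between -0.23 and 0.21, away from Mcts1 at -0.98.

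The wider initiation and recycling machinery was read through lists of genes. Of 19 factors that bring the initiator tRNA or select the start codon, 12 were lower and 7 higher in KI, with a median of -0.07 against -0.05 over all genes. None passed limma's adjusted p of 0.05. At limma's unadjusted p under 0.05, 3 were lower and 0 higher, where 6.4% and 4.45% of all genes were. No overlap between groups was seen for 6, or 31.6%, against 20.3% of all genes. Eif2s2, the beta subunit of the factor eIF2, read 3.095, 3.08 and 3.15 in KI and 3.37, 3.43 and 3.31 in WT, a difference of -0.26 (SE 0.09, limma's adjusted p = 0.433), but its other probe differed by 0.28. Eif5, which makes eIF2 hydrolyse its GTP, differed by -0.24 (SE 0.10, limma's adjusted p = 0.455), with 0.14 on its other probe. Eif2a, an alternative carrier of initiator tRNA, read 0.90, 0.95 and 0.57 in KI and 0.42, -0.46 and 0.56 in WT. Its difference of 0.63 (SE 0.28, limma's adjusted p = 0.474) was 0.31 without WT replicate 2.

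The eIF3 complex, which can stay on ribosomes that have translated short frames, had 13 measured subunits, 8 lower and 5 higher in KI, with a median of -0.12. None passed limma's adjusted p. At limma's unadjusted p under 0.05, 0 were lower and 1 higher, where 6.4% and 4.45% of all genes were. Eif3a, its largest scaffold subunit, read 2.32, 2.40 and 2.14 in KI and 1.98, 1.71 and 1.92 in WT, a difference of 0.42 (SE 0.12, limma's adjusted p = 0.413). Eif3l differed by -0.16 and Eif3m by -0.16, with -0.02 on the other Eif3m probe. All KI arrays lay below all WT arrays for 3 of the 13 subunits, both of these among them, against 12.5% of all genes. They lay above for 1 subunit, against 7.87% of all genes. Eif3e, at 0.38 (SE 0.23), read 1.78 in WT replicate 2, against 2.62 and 2.52 in WT replicates 1 and 3, and differed by 0.12 without that array. Without WT replicate 2, 3 of the 13 subunits were higher and 10 lower, with a median of -0.04 against -0.02 over all genes.

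Among 12 measured genes of termination and ribosome recycling, 7 were lower and 5 higher, with a median of -0.05. Of these, 0 passed limma's adjusted p. At limma's unadjusted p under 0.05, 0 were lower and 1 higher, where 6.4% and 4.45% of all genes were. Zfp598, the ubiquitin ligase that senses collided ribosomes, read -1.22, -1.02 and -1.16 in KI and -1.50, -1.50 and -1.44 in WT. Its difference was 0.35 (SE 0.10, limma's adjusted p = 0.413). Abce1, the ATPase that splits ribosomes into subunits, read 3.15, 3.205 and 3.18 in KI and 3.05, 2.53 and 3.06 in WT. As for Denr, the low WT value was that of replicate 2, and the difference of 0.30 (SE 0.16) was 0.12 without it. Gspt2, a release factor, differed by 0.20 and Ascc3, a helicase that splits stalled ribosomes, by 0.18, with -0.32 on its other probe and 0.08 without WT replicate 2. The median of the list was -0.0068 without that array.

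Proteins of the small ribosomal subunit, on which MCTS1 and DENR act, were lower for 26 of 34 genes and higher for 8, with a median of -0.12. None passed limma's adjusted p. At limma's unadjusted p under 0.05, 0 were lower and 1 higher, where 6.4% and 4.45% of all genes were. No overlap between groups was seen for 5.88%, against 20.3% of all genes. Rpsa differed by -0.33 on the brightest of its 4 probes, which spanned -0.33 to 0.11, with 3 lower and 1 higher. Rps14 differed by -0.26, while Rps27l was higher by 0.27 (SE 0.11, limma's adjusted p = 0.459). Without WT replicate 2 the counts were 21 lower and 13 higher, with a median of -0.04 against -0.02 over all genes.

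Transcripts with upstream reading frames, or reported to need DENR or MCTS1 for translation, were higher in KI for 10 of 13 measured members and lower for 3. Their median was 0.18 against -0.05 over all genes, and 0.23 against -0.02 without WT replicate 2, when 11 were higher. None passed limma's adjusted p. At limma's unadjusted p under 0.05, 0 were lower and 4 higher, where 6.4% and 4.45% of all genes were. All KI arrays were above all WT arrays for 4 members, or 30.8%, where this held for 7.87% of all genes. Klhdc8a was not kept, since only 1 KI and 1 WT array had it well above background. Over the same arrays all 5 oligodendrocyte markers and all 7 striatal markers were also higher in KI, and their part in this list was not tested. Translation itself was not measured here: an array reads the amount of RNA.

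Clock, a core circadian transcription factor, read 0.39, 0.33 and 0.23 in KI and -0.04, -0.05 and -0.08 in WT, a difference of 0.37 (SE 0.09, limma's adjusted p = 0.399). Its WT arrays were nearly equal, and the difference was 0.38 without WT replicate 2. Ifrd1, a transcriptional co-regulator, differed by 0.38 (SE 0.12, limma's adjusted p = 0.416). Ddit3, the stress factor CHOP, differed by 0.38 (SE 0.13, limma's adjusted p = 0.426) and by 0.29 without WT replicate 2. Cebpa, whose upstream frame sets which protein isoform is made, read -1.01, -1.0004 and -1.16 in KI and -1.27, -1.81 and -1.45 in WT, a difference of 0.45 (SE 0.16, limma's adjusted p = 0.433) that was 0.30 without WT replicate 2. Each of these 4 genes was read by 1 kept probe.

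The 4 kinases that phosphorylate eIF2, and so lower the supply of initiator tRNA, went both ways, and 0 passed limma's adjusted p. Limma's unadjusted p was below 0.05 for 0 of them, against 10.9% of all genes. Eif2ak2, the double-stranded RNA sensor, differed by 0.20 (SE 0.12) and Eif2ak1, the heme-regulated kinase, by 0.15 (SE 0.16). Eif2ak3, the kinase of the endoplasmic reticulum, differed by -0.11 (SE 0.11) and Eif2ak4, the amino acid sensor, by -0.09 (SE 0.10). Without WT replicate 2 these differences were 0.09 for Eif2ak2, 0.07 for Eif2ak1, -0.04 for Eif2ak3 and -0.05 for Eif2ak4.

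**Figure D5:**
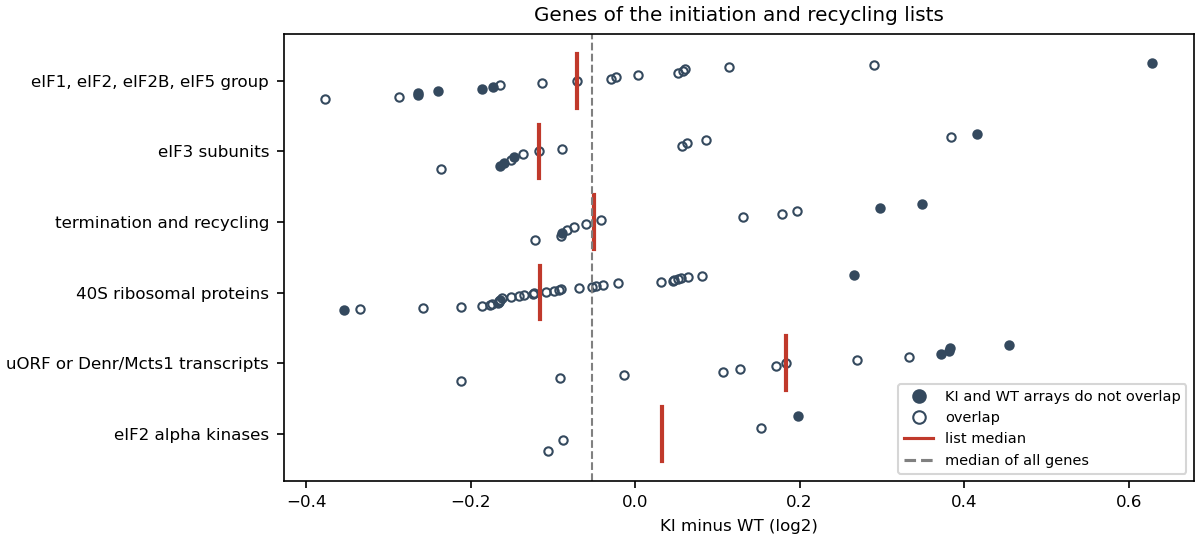
KI minus WT difference (log2) of each measured gene in 6 lists; filled points have no overlap between KI and WT arrays, red bars are list medians and the dashed line is the median of all genes (-0.05). The list of transcripts with upstream frames has its median at 0.18, and the 40S proteins theirs at -0.12.

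The 5 genes, placeholder names aside, whose values over the 6 arrays, centred on their mean, lay closest to those of Mcts1 were Ankrd34c, Cers3, Fem1al, Kdm4d and Tmem69, at Euclidean distances of 0.20 to 0.40 and Pearson correlations of 0.96 to 0.99 over 6 arrays. These points share the same 2 groups and 2 slides, and the high correlations follow from how the genes were picked. All 5 were dimmer than Mcts1. Their KI means were -2.60, -4.34, -4.42, -3.80 and -4.38 in the order named, against 1.98 for Mcts1. Ankrd34c read -2.50, -2.84 and -2.47 in KI and -1.67, -1.47 and -1.66 in WT. Cers3, a ceramide synthase, differed by -1.03, Kdm4d, a histone demethylase, by -0.81 and Tmem69 by -0.74 by its brightest probe, with both of its probes lower. They lie on chromosomes 9, 7, 11, 9 and 4, and none shares the X chromosome with Mcts1.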

How the data were processed

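RNA from 3 KI and 3 WT synaptosome samples was measured on one array each. The labels' protocols name Cy3 labelling with a low-input kit. Per the file headers, the authors' scanner files were made with Agilent Feature Extraction and hold a processed intensity (background-subtracted and detrended, not normalized between arrays) beside raw mean and background intensity. The authors also deposited a log2 value table, with no account of its normalization in those sources; it served as an alternative. Coordinates (mm9) come from the arrays' own annotation.

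Control spots were left out. Log2 processed intensity was scaled to the 75th percentile of all other spots of each array, and spots of a probe were averaged. An outlier spot was left out of that average only where another spot of its probe was not an outlier. No spot of the member probes printed once was an outlier. Probes well above background on at least 3 arrays were kept (29318), and the brightest one stood for its gene. Names came from a RefSeq table of GRCm38.p6. Differences are KI minus WT, with SE from limma 3.58.1 in R 4.3.3 (two-sided, Benjamini-Hochberg over 20975 genes); member SEs and intervals come from the same fit over all kept probes. The fit was tested on simulated data. The members, lists and alternatives were chosen with earlier results of these data known. Genes named were the 4 of smallest unadjusted p per list, the genes read for sex, the 5 closest profiles and Fmr1; H13 and those said to be named after their values were added. The number of arrays limits the precision. One gene that this rule names is not reported here.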

Additional observations from a re-analysis of the deposited data

How the results depend on the processing

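Mcts1, Mcts2 and Eif2d moved by less than 1 SD between replicates under each of the 17 alternatives, and Denr moved by more under 2 of them, to 0.10 with slide as a fixed block and with slide 1 alone, both of which compare KI with WT replicate 3. Leaving out one array moved Mcts1 between -1.04 and -0.93, Mcts2 between -0.45 and -0.24, Denr between 0.19 and 0.57, and Eif2d between -0.10 and 0.06. The count of genes past limma's adjusted p was 2; it was 1 with normexp, 5 with scaling by the median of detected probes, with probes averaged per gene, with slide 1 alone and with slide as a random block, 7 with slide as a fixed block, and 0 with the authors' value table, without a filter, with a filter requiring all 6 arrays, and with the replicate block (2289, 3490, 2250 and 2413 genes at an unadjusted p under 0.05). Leaving out one array gave 0 to 3. No listed pathway gene or neighbour passed under any alternative.

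Whether the replicate numbers pair the samples was not settled. Deviations of same-numbered KI and WT arrays correlated at 0.40, -0.02 and 0.25 across genes for replicates 1 to 3. Pairs of unlike number ran from -0.40 to 0.15. KI replicate 2 correlated best with WT replicate 3, at 0.07. With the replicate number as a block, Mcts1 differed by -0.98, Mcts2 by -0.35, Denr by 0.42 and Eif2d by -0.04.

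Signs turned for genes with small differences. With slide as a fixed block, and equally with slide 1 alone, C1galt1c1 was -0.013, Ddx3y -0.013, Eif2ak1 -0.12, Eif2ak3 0.068, Eif2ak4 0.034, Kdm6a 0.033 and Tmem255a 0.077. With probes averaged per gene, Ascc3 was -0.072, Eif2ak4 0.0098 and Eif2s2 0.010, and with normexp Eif2ak2 was -0.029. Leaving out one array moved C1galt1c1 between -0.030 and 0.28, H13 between -0.095 and 0.15, Kdm6a between -0.14 and 0.041, and Tmem255a between -0.51 and 0.068; Kdm5c was -1.02e-04 without WT replicate 3. The causes were not tested.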

Other observations

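WT replicate 2, which set the size of the Denr difference, also read low for some other genes of the same machinery. Eif2a at -0.46, Eif3e at 1.78 and Abce1 at 2.53 each read lowest there of the 6 arrays. So did C1galt1c1, the nearest neighbour of Mcts1, at 1.61. Mcts1 and Mcts2 were instead highest on that array, at 3.07 and 2.24. These genes were singled out after their values were seen.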
